A study of Mus musculus with 30 samples.

Results

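Ttr, Rbp4 and Stra6, the genes of the retinol supply route from the blood into the retinal pigment epithelium (RPE), were followed through a day in mouse RPE samples. They were chosen by name, as the 3 rows of the expression table that carry these symbols, out of 51904 genes. The study sampled 30 mice, all wild-type males of strain C57BL/6 and 10 to 13 weeks old, with no treatment named. Zeitgeber time (ZT) counts hours from lights-on, which by convention is ZT0, and 5 mice each were taken at ZT0, ZT2, ZT4, ZT9, ZT14 and ZT19. Each sample was the RPE of 1 eye of 1 mouse, 16 left and 14 right eyes in all. The RPE clumps had been lifted with forceps from an eyecup that still held choroid and sclera, so RNA of neighbouring tissues could enter the samples. Values are FPKM, read numbers normalised to transcript length and library size, from single reads of 75 bases with a stated mean of 20 M reads a sample (M: mega).

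The RPE is the pigmented cell layer between photoreceptors and choroid, and it turns vitamin A into the light-sensitive chromophore of the visual pigments. Retinol is poorly soluble in water and reaches tissues bound to retinol-binding protein (Rbp4), which liver and fat cells secrete and which circulates in a complex with transthyretin (Ttr). Stra6, a membrane receptor abundant on the blood-facing side of the RPE, takes retinol over from Rbp4 and passes it into the cell, where the enzyme Lrat esterifies it. Transthyretin is made in the liver, the choroid plexus and the RPE itself.

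The promoters of Stra6 and Rbp4 are shown because Stra6 varied with Ttr from mouse to mouse, and for Rbp4 no such relation passed the test. They come from RefSeq, build GRCm38.p6, which lists 4 starts for Stra6 and 2 for Rbp4. The start nearest to that of a principal transcript was used for each gene. Each window covers the 250 bases before it, chr9:58128838-58129087 on the plus strand for Stra6. The Rbp4 window is trimmed to its longest stretch outside annotated exons, 126 bases at chr19:38124829-38124954 on the minus strand. Capitals mark a TATA box (TATAAA).
Stra6: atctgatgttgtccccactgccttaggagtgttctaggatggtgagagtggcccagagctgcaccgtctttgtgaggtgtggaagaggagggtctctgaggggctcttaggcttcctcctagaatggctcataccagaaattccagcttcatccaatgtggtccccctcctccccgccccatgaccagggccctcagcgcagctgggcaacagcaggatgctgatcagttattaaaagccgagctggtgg
Rbp4: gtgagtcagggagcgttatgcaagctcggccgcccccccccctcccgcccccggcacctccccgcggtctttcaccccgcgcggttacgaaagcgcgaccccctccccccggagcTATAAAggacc
The TATA box of Rbp4 covers bases 28 to 23 upstream of the RefSeq start at 38124811. The annotated principal transcript starts 17 bases from that RefSeq start, so the distance depends on the start used. Both strands of the full windows were searched. The E-box CACGTG, the M-box core CATGTG, the OTX2 core TAATCC, the nuclear receptor half-site AGGTCA and the D-box TTATGTAA were found in neither window. TATAAA was found in the Rbp4 window alone, and windows before the other starts were not examined. The Ttr promoter was not searched, so these matches cannot be set against the relation of either gene to Ttr. Of 32841 promoter windows of the same length, 6.02% held the E-box, 12.3% the M-box core, 6.25% the OTX2 core, 14.0% the half-site, 0.819% the D-box and 12.4% the TATA box. These matches describe letters in a window and are no evidence of binding.

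Ttr (ENSMUSG00000061808) lies on chromosome 18 of GRCm38 at 20665280 to 20674321 on the plus strand, with 1 annotated transcript of 4 exons and 1186 bases. Rbp4 (ENSMUSG00000024990) lies on chromosome 19 at 38116629 to 38125281 on the minus strand, with 4 transcripts, the principal one of 937 bases in 6 exons. Stra6 (ENSMUSG00000032327) lies on chromosome 9 at 58063788 to 58153996 on the plus strand, with 14 transcripts, of which 4 principal ones hold 19 exons each. Its span overlaps Ccdc33 on the other strand, listed at 0 to 20.8 FPKM with a median of 3.48, and Gm16131, listed at 0 in every sample. The sources used here do not state whether reads were counted by strand, so reads shared between Stra6 and Ccdc33 cannot be told apart.

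FPKM totals lay between 700956 and 922481 a sample. Of the libraries, 29 listed 16723 to 19374 genes above 0, and ZT14 replicate 3 listed 12754. Genes listed at 0 in a library despite a median of 10 FPKM or more elsewhere numbered 557 there and 1 to 23 in the rest. All 14 genes of the RPE marker list had a median above 0, with the lowest median for Best1 (0.607 FPKM), and their summed level was 3851 to 12426 FPKM. Markers of other tissues were present to differing extents, and the lens list alone reached a sum of 0. The 6 cornea and conjunctiva markers summed to 1444 to 15827 FPKM and the 8 rod markers to 24.0 to 10537 FPKM. In bulk samples such as these, fewer cells of a type and less RNA per cell cannot be told apart.

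Ttr was one of the most abundant transcripts of the samples and its level spread widely among mice of the same time point. It ranked between 9 and 33 among all genes of a sample, with a median rank of 14, and made up 0.247% to 0.902% of the FPKM total. Over the 30 mice it lay between 2240.2 and 7188 FPKM, with a median of 4251 and a coefficient of variation of 31.3%.

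At ZT0, Ttr was 2359, 4258, 2861, 2869.8 and 2586 FPKM in replicates 1 to 5, and at ZT2 it was 3274, 2343, 4321, 3765 and 4170.3 FPKM. At ZT4 it was 2240.2, 6499, 5211, 7188 and 3822 FPKM, and at ZT9 6232, 3198, 4419, 4244 and 3839 FPKM. At ZT14 it was 3473, 4106, 5652, 4577 and 5360.3 FPKM, and at ZT19 5645, 5505, 6800.1, 4337 and 5250.3 FPKM. ZT4 held both the lowest and the highest Ttr value of the study, while the other time points covered narrower ranges. The means were 2987 ± 742 FPKM at ZT0, 3575 ± 799 at ZT2, 4992 ± 2005 at ZT4, 4386 ± 1134 at ZT9, 4634 ± 894 at ZT14 and 5508 ± 884 at ZT19 (SD, n = 5 each). From low to high the order was ZT0, ZT2, ZT9, ZT14, ZT4, ZT19, and no neighbours in that order differed by more than their pooled SD. The extremes of that order, ZT19 and ZT0, did not overlap (4337 to 6800.1 against 2359 to 4258 FPKM). Of the 16741 genes tested, 1.86% were likewise higher at ZT19 without overlap. The summed RPE markers did not overlap between these times either (9389 to 10935 FPKM at ZT19 against 4735 to 8444 at ZT0), nor did the cornea and conjunctiva markers (1515 to 2943 at ZT19 against 7745 to 14662 at ZT0). The part of these markers in the Ttr difference was not tested.

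Stra6, the uptake receptor, was expressed at a moderate level that spread among mice much as Ttr did. It ranged over the 30 mice from 71.3 to 276 FPKM with a median of 159, ranked 323 to 1711 with a median rank of 604, and had a coefficient of variation of 29.7%. Per length of transcript, Ttr exceeded Stra6 by 21.7 to 36.3 times in the same sample, with a median ratio of 26.9.

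Stra6 was 87.0, 152, 132, 110.3 and 71.3 FPKM at ZT0, and 146, 98.8, 176, 127 and 148 FPKM at ZT2. It was 71.4, 259.9, 182, 276 and 154 FPKM at ZT4, and 207, 123, 191, 179.9 and 160.2 FPKM at ZT9. At ZT14 the values were 125, 161, 157, 171 and 173 FPKM, and at ZT19 173, 178, 201, 152 and 205 FPKM. As for Ttr, replicate 1 was the lowest and replicate 4 the highest of the ZT4 mice. The means were 110.5 ± 32.6 FPKM at ZT0, 139 ± 28.5 at ZT2, 189 ± 83.1 at ZT4, 172 ± 32.3 at ZT9, 158 ± 19.2 at ZT14 and 182 ± 21.6 at ZT19 (SD, n = 5 each). Their order from low to high was ZT0, ZT2, ZT14, ZT9, ZT19, ZT4. No neighbours differed by more than their pooled SD, and even ZT4 and ZT0 overlapped.

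Rbp4, the plasma carrier, was a low-level transcript whose values varied widely within every time point after ZT0. It was listed at 0 to 23.2 FPKM with a median of 4.63. Of the 30 libraries, 7 were below 0.5 FPKM and 4 of these were at 0. At the stated depth 1 read over the 937 bases of its principal transcript is worth 0.0534 FPKM, so the low values rest on few reads, and a listed 0 can also be a failed estimate.

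Rbp4 was 5.71, 6.44, 3.70, 4.91 and 1.91 FPKM at ZT0, and 0, 4.16, 7.99, 8.58 and 14.8 FPKM at ZT2. It was 6.23, 0, 4.35, 2.46 and 0 FPKM at ZT4, and 11.2, 0.174, 6.14, 4.29 and 0.472 FPKM at ZT9. At ZT14 the values were 1.63, 8.35, 0, 0.0661 and 7.24 FPKM, and at ZT19 7.18, 19.8, 4.98, 2.02 and 23.2 FPKM. Both values above 15 FPKM came from ZT19, yet the same time point held a mouse at 2.02 FPKM, and the ranges of all 6 time points overlapped. The 0 at ZT14 replicate 3 belongs to the library with 557 genes at 0. By median the order from low to high was ZT14, ZT4, ZT9, ZT0, ZT19, ZT2, at 1.63, 2.46, 4.29, 4.91, 7.18 and 7.99 FPKM.

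**Figure D1:**
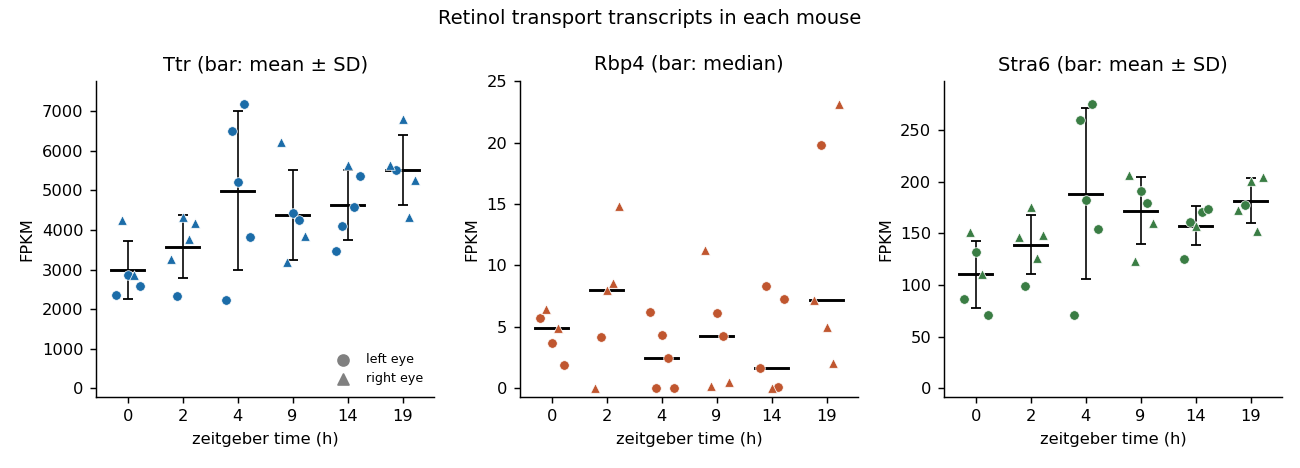
FPKM of Ttr, Rbp4 and Stra6 (vertical axes, linear) in each of 30 mice by zeitgeber time in h, with circles for left and triangles for right eyes. Bars are the mean ± SD of 5 mice for Ttr and Stra6 and the median for Rbp4. Ttr is at 2359 to 4258 FPKM at ZT0 and at 4337 to 6800.1 FPKM at ZT19, and Rbp4 touches 0 at ZT2, ZT4 and ZT14.

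The study's design asks whether transcript levels follow the time of day. None of the 3 genes passed in any of the 3 tests (limma's moderated tests on log2(FPKM + 1), Benjamini-Hochberg adjustment over 16741 genes, threshold 0.05). Calls were rare across all genes too, at 0.108% for a 24 h rhythm, 0.0717% for any difference among the 6 time points and 0.0299% for the contrast of day samples (ZT2, ZT4, ZT9) with night samples (ZT14, ZT19). Without adjustment, 8.76%, 8.67% and 10.5% of all genes fell below 0.05 in these tests, and of the 3 genes Ttr did so among the 6 time points, and in no other test did any of the 3.

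For Ttr, the fitted 24 h cosine had an amplitude of 0.24 ± 0.11 (log2, SE) and a peak at ZT14.1, with a limma adjusted p of 0.637. Among the 6 time points its means spanned 0.90 on the log2 scale (unadjusted p = 0.0197, adjusted p = 0.475 by limma). Its level was 2240.2 to 7188 FPKM with a median of 4170.3 in the 15 day samples, against 3473 to 6800.1 FPKM with a median of 5305 in the 10 night samples. Day and night samples overlapped, and the day minus night difference was -0.28 on the log2 scale (95% interval -0.62 to 0.05, limma adjusted p = 0.545).

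For Stra6, the amplitude was 0.20 ± 0.11 (log2, SE) with a fitted peak at ZT11.9 (limma adjusted p = 0.707), and the adjusted p among the 6 time points was 0.592. It was 71.4 to 276 FPKM with a median of 160.2 in day samples, against 125 to 205 FPKM with a median of 172 in night samples. The night values lay inside the range of the day values. The difference was -0.09 (log2, 95% interval -0.43 to 0.25, limma adjusted p = 0.892), and it was 0.01 without ZT4 replicate 1, the sample with the lowest RPE marker level of all.

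For Rbp4, the amplitude was 0.75 ± 0.37 (log2, SE) with a fitted peak at ZT20.5 (limma adjusted p = 0.667), and the adjusted p among the 6 time points was 0.749. It was listed at 0 to 14.8 FPKM with a median of 4.29 in day samples, against 0 to 23.2 FPKM with a median of 6.08 in night samples. The difference was -0.43 (log2, 95% interval -1.48 to 0.62, limma adjusted p = 0.806), an interval wide enough to hold sizeable differences in either direction. With the 4 values of 0 taken as missing it was -0.09 (limma adjusted p = 0.970), and with runs of consecutive animal numbers as a covariate -0.11 (limma adjusted p = 0.958). Leaving out single samples gave -0.63 to -0.21, the smallest without ZT2 replicate 1.

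Ttr and Stra6 went up and down together from mouse to mouse, and no relation of Rbp4 with either passed the test. Over the 30 samples, log2(FPKM + 1) of Ttr and Stra6 had a Pearson r of 0.913 and a Spearman rho of 0.895, each with a permutation p of 1e-05, the smallest that 100000 resamples can give (adjusted over the 3 pairs, 3e-05). After the mean of each time point had been taken away r was 0.896. It was 0.944 in the 16 left eyes and 0.863 in the 14 right eyes, and 0.892 without the 2 samples farthest from the median of Ttr. Rbp4 had an r of 0.09 with Ttr and 0.02 with Stra6 (permutation test, adjusted p = 0.902 for both). With its 4 values of 0 as missing r was 0.25 and 0.19 in 26 samples. The sign differed between the eye sets, at -0.12 and -0.17 in left eyes and 0.34 and 0.38 in right eyes. None of these passed the permutation test. Eye and time point were not balanced: all 5 ZT4 samples were left eyes, and 4 of 5 samples at ZT2 and at ZT19 were right eyes. Eye and time point therefore cannot be told apart in this split. The ratio of Ttr to Stra6 averaged 27.8 ± 5.31 at ZT0, 25.7 ± 3.10 at ZT2, 27.2 ± 2.78 at ZT4, 25.4 ± 2.87 at ZT9, 29.4 ± 4.21 at ZT14 and 30.3 ± 3.31 at ZT19 (SD, n = 5 each). Its lowest and highest values, 21.7 and 36.3, both came from ZT0.

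Ttr and Stra6 each followed the level of RPE markers in the sample. The part of this level in their shared variation was not tested. That level is the mean log2(FPKM + 1) of the 14 RPE markers, none of them among the 3 genes. It had an r of 0.928 with Ttr (rho 0.934) and 0.924 with Stra6 (rho 0.884), each with an adjusted permutation p of 1.5e-05. Rbp4 had an r of 0.03 (rho 0.11, adjusted permutation p of 0.854 for r). Without the 2 samples farthest from the median marker level, r was 0.921 for Ttr, 0.881 for Stra6 and 0.06 for Rbp4. For Rbp4 it was 0.15 with the values of 0 as missing. Within the left and the right eyes r was 0.946 and 0.877 for Ttr and 0.952 and 0.834 for Stra6. For Rbp4 it was -0.22 in left and 0.40 in right eyes, with neither past the permutation test. The eye sets again differ in their time points. The lowest RPE marker level of all, 7.06, and the lowest Ttr value came from ZT4 replicate 1.

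**Figure D2:**
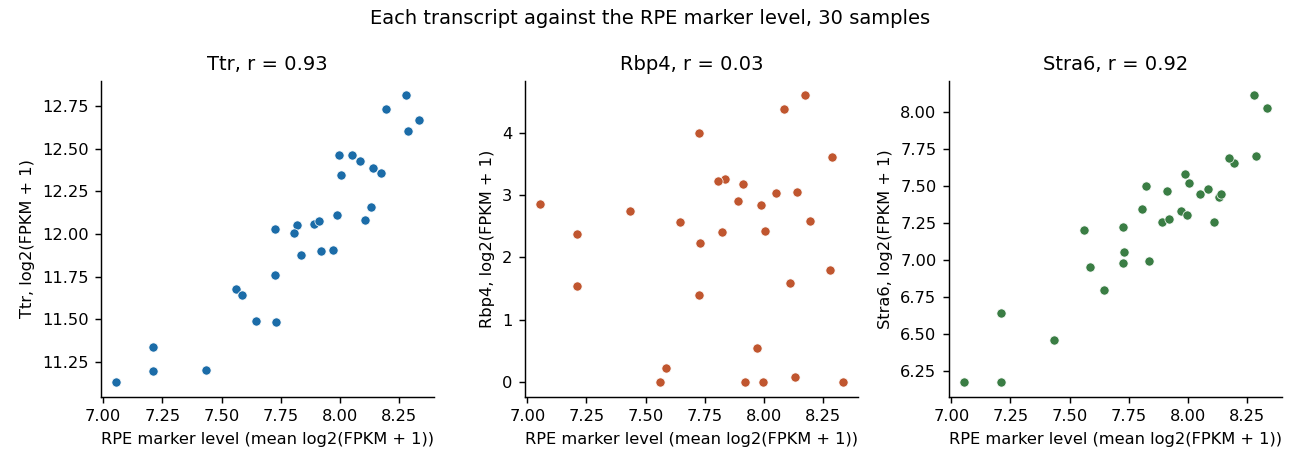
Level of Ttr, Rbp4 and Stra6 (vertical axes, log2(FPKM + 1)) against the RPE marker level (horizontal axes, mean log2(FPKM + 1) of 14 markers), 1 point for each of 30 samples. Ttr and Stra6 lie along a rising line with r of 0.93 and 0.92, and Rbp4 scatters with r of 0.03.

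With the RPE marker level as a covariate, the time course of Ttr was nearly flat. Its amplitude was 0.0088 against 0.24 without the covariate, the span of its 6 means was 0.24 against 0.90, and its day minus night difference was -0.03 (95% interval -0.21 to 0.15) against -0.28. Stra6 then had a day minus night difference of 0.18 (95% interval 0.01 to 0.35, limma adjusted p = 0.598), where it was -0.09 without the covariate. With the levels of 5 tissue lists as covariates (rods, stroma, skeletal muscle, oligodendrocytes, and cornea and conjunctiva) the differences were -0.01 for Ttr, 0.04 for Stra6 and -0.54 for Rbp4. The RPE markers include Rpe65, Lrat and other genes whose own levels may follow the day. A share of RPE in the sample and a time course common to RPE genes therefore cannot be told apart in these fits.

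**Figure D3:**
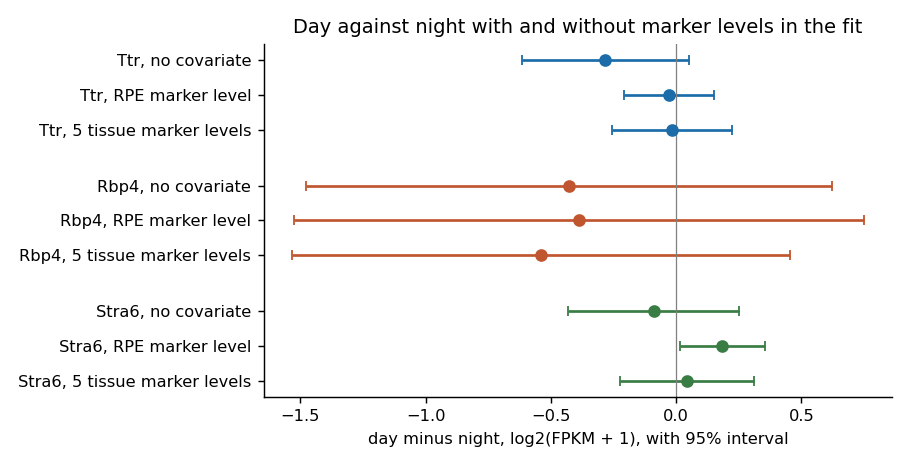
Day minus night difference (horizontal axis, log2(FPKM + 1)) of Ttr, Rbp4 and Stra6 without a covariate, with the RPE marker level and with 5 tissue marker levels in the fit, with points for estimates and bars for 95% intervals. The Ttr estimate is at -0.28 without and -0.03 with the RPE marker level, and the Rbp4 intervals are the widest.

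The 3 genes were then set against the levels of 15 other tissue marker lists. The 3 lists that passed for Rbp4 passed for neither Ttr nor Stra6 in this setting. With the time point means taken away, rods, cones and inner retina passed for all 3 genes, and choroidal melanocytes with Schwann cells for Ttr and Rbp4. The difference between the correlations of 2 genes was not tested. Of the 15 lists, 5 correlated with Ttr, 7 with Stra6 and 3 with Rbp4 after adjustment over all 45 pairs (permutation test). Ttr and Stra6 were higher where endothelium (r of 0.75 and 0.71), stroma (0.62 and 0.64) and immune cell markers (0.68 and 0.53) were higher. Both were lower where cornea and conjunctiva markers (-0.82 and -0.63) and inner retina markers (-0.45 and -0.53) were higher. By Spearman rho the inner retina relation did not pass, with adjusted permutation p of 0.198 for Ttr and 0.0938 for Stra6. Stra6 was also lower with rod (-0.50) and cone markers (-0.51), where Ttr had r of -0.38 and -0.41 with adjusted p of 0.0905 and 0.064. Cornea and conjunctiva markers summed to 1444 to 15827 FPKM by day with a median of 9996, against 1515 to 9738 by night with a median of 2898. None of the 6 had a median of 0, and their part in the day and night values was not tested.

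Rbp4 was higher where markers of blood (r of 0.49), oligodendrocytes (0.48) and choroidal melanocytes with Schwann cells (0.48) were higher, with adjusted permutation p values of 0.0227, 0.0227 and 0.024. These relations rest in part on the outlying samples, since r was 0.36, 0.32 and 0.42 without the 2 samples farthest from each list's median. By Spearman rho, the adjusted p was 0.0582 for blood, 0.0689 for oligodendrocytes and 0.0394 for choroidal melanocytes with Schwann cells. Fat cells are a known source of Rbp4, and their markers had an r of 0.31 with it (adjusted permutation p = 0.176). This r was 0.17 without the 2 samples farthest from the list's median and 0.21 with the time point means taken away. Summed fat cell markers were 9.37 to 472 FPKM at ZT19, the time of both Rbp4 values above 15 FPKM, with a median of 179.8, against medians of 11.4 to 44.1 FPKM at the other times. Their part in the Rbp4 values was not tested. Lep, the leptin gene of that list, had a median of 0.

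**Figure D4:**
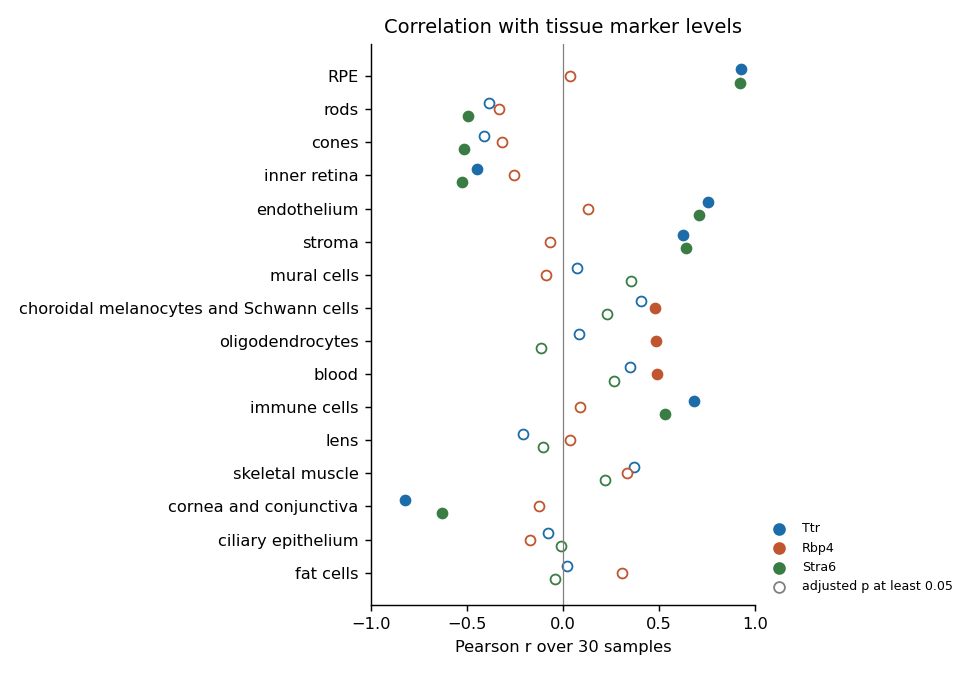
Pearson r over 30 samples (horizontal axis) of Ttr, Rbp4 and Stra6 with the RPE marker level and 15 other tissue marker levels (rows), with filled points for an adjusted permutation p below 0.05. Ttr and Stra6 are both highest with the RPE marker level (0.93 and 0.92). Both are lowest with cornea and conjunctiva (-0.82 and -0.63). The 3 filled points of Rbp4 are all at r of 0.48 to 0.49.

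Genes with the most similar pattern over the 30 samples included visual cycle and lysosomal genes for Ttr and Stra6, and none of these for Rbp4. Ttr was closest to Rgr, an opsin of the RPE (r of 0.978), Psap, the precursor of the lysosomal saposins (0.966), Slc16a8, a lactate transporter of the RPE (0.963), and Ctsd, a lysosomal protease (0.954). Stra6 was closest to Rlbp1, which binds retinal inside RPE and glia (0.939), Rdh10, a retinol dehydrogenase (0.937), Psap (0.934), Rgr (0.925) and Abhd2 (0.917). Of 16740 other genes, 22 had an r of at least 0.9 with Ttr and 11 with Stra6. Rgr, Slc16a8 and Rlbp1 are also in the RPE marker list. Rbp4 was closest to Cct7, a subunit of the cytosolic chaperonin (0.739), Gm45396 (0.677), Osr1, a transcription factor (0.647), Tnfaip6, a secreted hyaluronan-binding protein (0.641), and Gm13688 (0.638). No gene reached 0.8 with Rbp4, and the highest of 16740 values is a maximum over many.

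Among 37 genes of retinoid transport and metabolism, 33 were tested and 0 passed in any of the 3 limma tests. Without adjustment, 4 of the 33 fell below 0.05 for the 24 h rhythm and 8 among the 6 time points, against 8.76% and 8.67% of all genes. By day 3 were higher and 2 lower without adjustment, against 6.21% and 4.33% of all genes. The median day minus night difference was -0.17 over the 33 and 0.02 over all tested genes. Of the 8 carriers and uptake receptors 6 were tested. Scarb1, a scavenger receptor, had a median of 47.5 FPKM, Cd36, a fatty acid receptor, 30.2 FPKM, and Lrp2, the endocytic receptor megalin, 4.80 FPKM. Cubn, a partner of megalin, had a median of 0.325 FPKM and Stra6l, a relative of Stra6 that takes up retinol in other tissues, was listed at 0 in 17 samples. By median FPKM, Ttr and then Stra6 were the highest of the 8 genes.

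The 4 retinoid genes below an unadjusted 0.05 for the rhythm were Lrat, Rpe65, Fabp5 and Cyp26a1. Lrat, which esterifies the retinol that Stra6 brings in, had medians of 116, 128, 197, 216, 266 and 201 FPKM from ZT0 to ZT19. Its amplitude was 0.51 ± 0.12 (log2, SE) with a fitted peak at ZT12.2, and its limma adjusted p was 0.175. Rpe65, the isomerase of the visual cycle, was 336 to 1648 FPKM by day with a median of 852, against 1004 to 1629 FPKM by night with a median of 1133, a difference of -0.50 on the log2 scale (limma adjusted p = 0.356). Rpe65 is named here after its values were seen. Cyp26a1, which breaks down retinoic acid, was 3.70 to 25.3 FPKM by day with a median of 9.87, against 0 to 13.3 FPKM by night with a median of 3.25. Its difference was 1.07 (log2, 95% interval 0.32 to 1.81, limma adjusted p = 0.334). Fabp5, a fatty acid and retinoic acid carrier, had an amplitude of 0.33 ± 0.11 (log2, SE) with a peak at ZT3.5 (limma adjusted p = 0.477). Among the retinoid receptors Rxra had the smallest rhythm p, with an amplitude of 0.20 ± 0.10 (log2, SE) and a limma adjusted p of 0.684.

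Retinoid genes differed in how they went with the RPE marker level, which here leaves out the gene itself. Besides Ttr and Stra6, r was 0.95 for Rdh10, 0.94 for Rgr, 0.93 for Rlbp1 and for Rdh5, 0.91 for Rpe65 and 0.85 for Lrat. Rgr, Rlbp1, Rdh5, Rpe65 and Lrat are themselves on the RPE marker list, so a high r was to be expected from how they were chosen. Near 0 lay Rbp4 (0.03), Cyp26a1 (0.06), Aldh1a1 (0.08) and Dhrs3 (0.10). Rbp2, a retinol carrier known from the intestine, had a median of 163 FPKM and an r of -0.73, and Aldh1a3, a retinoic acid synthase, an r of -0.70. These values are given as a description of 30 samples without a test.

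**Figure D5:**
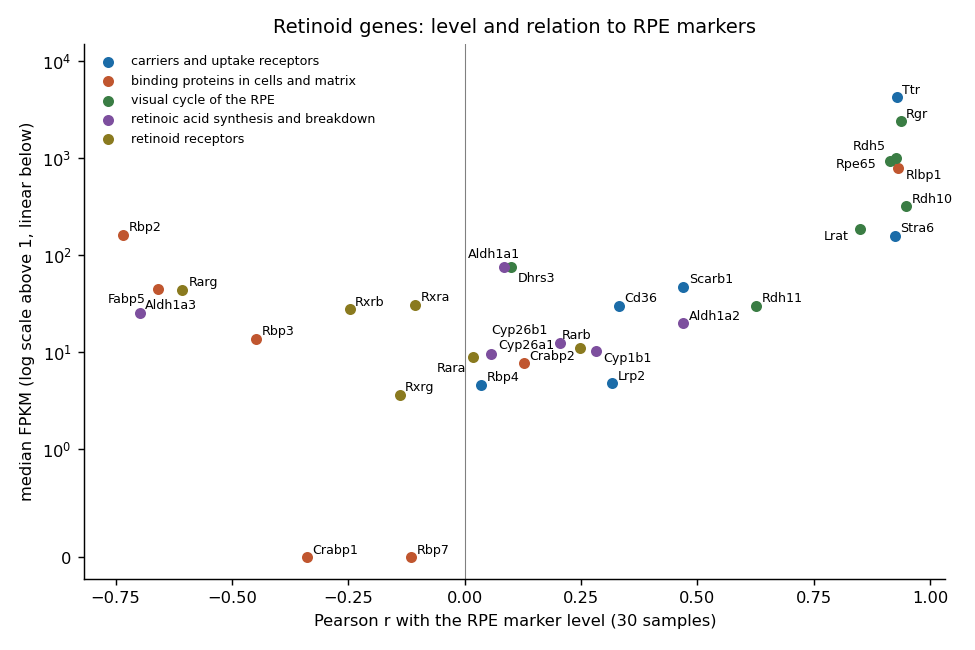
Median FPKM (vertical axis, log scale above 1 and linear below) of tested retinoid genes against their Pearson r with the RPE marker level over 30 samples (horizontal axis), coloured by list. Ttr at 4251 FPKM is the highest point and lies with Stra6, Rgr and Rlbp1 above r of 0.9. Rgr and Rlbp1 are themselves RPE markers. Rbp4 lies near r of 0 at 4.63 FPKM.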

How the data were processed

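The authors deposited FPKM for 51904 Ensembl genes in 30 samples, written with decimal commas. Per the submitters' processing notes, STAR, Cufflinks, DESeq2 and mm10 were used, without versions or roles; the annotation and strand setting are not given in the sources used here. Per the labels' protocols, RNA came from a micro column kit and was run on a NextSeq instrument. FPKM are relative to all mapped reads of a sample, so RNA of other tissue lowers the value of RPE genes. Every column matched 1 sample through animal number and eye. Replicate numbers follow accession order.

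Genes with at least 1 FPKM in at least 5 samples (16741) were analysed as log2(FPKM + 1), a scale that understates changes of low genes, with limma 3.58.1 (R 4.3.3, mean-variance trend). The tests were a 24 h cosine, a moderated F test over 6 time points, and day (ZT2, ZT4, ZT9) minus night (ZT14, ZT19), all two-sided, with Benjamini-Hochberg adjustment over all tested genes at 0.05. The fits were tested on simulated data, with planted rhythms all larger in amplitude than those fitted for Ttr and Stra6. Recovery of rhythms as small as theirs was not tested. Correlations used 100000 permutations (numpy 2.4.6). Marker levels are means of log2(FPKM + 1) over a list. Named genes were the 3 members, the smallest rhythm p of each of 5 retinoid lists and the 5 most correlated genes of each member, of which 1 is not reported here. The members and lists were chosen with earlier results of these data known. Gene positions come from GENCODE M21 and promoters from RefSeq. Alternatives were other pseudocounts, filters, scalings, covariates, eyes and each sample left out in turn. Read counts were not analysed here, so no counting interval is given.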

Additional observations from a re-analysis of the deposited data

Results flagged for a closer look

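Ttr at ZT0 stood out in 1 sample. Replicate 2 had 4258 FPKM, and its gap to the nearest of the other 4 mice was 0.731 of the range of the group, above Dixon's critical value of 0.71 for 5 samples. It also had the highest Stra6 value (152 FPKM) and the highest RPE marker level (7.89) of the ZT0 mice. Without it, the adjusted p of Ttr among the 6 time points was 0.439. Of 18 groups of 5 mice examined, this was the 1 past the limit, and chance passes about 1 in 20 groups.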

How the results depend on the processing

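No setting brought Ttr, Rbp4 or Stra6 past 0.05 in any of the 3 tests across genes, and the correlations among Ttr, Stra6 and the RPE marker level held under every setting tried. Apart from leaving out single samples, 160 values were counted as unchanged, 7 as reversed and 1 as moved. For a gene, unchanged means the same call, with no turn of sign in a day minus night difference or correlation. The size of an effect does not enter, so a gene that passes no test keeps its call easily. The Ttr amplitude counted as unchanged at 0.0088 with the RPE marker level as a covariate, against 0.24 without. The tests among time points have no direction. Counts of called genes were taken as unchanged within a ratio of 1.5. The Stra6 peak was also taken as unchanged at ZT6.1 with the RPE marker level as a covariate, against ZT11.9 without. The number of genes called for day against night was 3 with the RPE marker level as a covariate, against 5 without. The day minus night difference of Stra6 was 0.18 with that covariate and 0.0426 with 5 tissue levels. Leaving out single samples gave -0.147 to 0.0141 for it, with the sign turned without ZT4 replicate 1. Leaving out that sample also moved limma's test among the 6 time points most. Its unadjusted p was then 0.0011 for Ttr, against 0.0197 with all samples, and 0.0013 for Stra6, against 0.0626. The adjusted p was 0.169 for both, the lowest with any single sample left out. The near-zero correlations of Rbp4 changed sign. With a pseudocount of 0.1, r was -0.0506 with Stra6 and -0.0023 with the RPE marker level. In left eyes it was -0.12 with Ttr, -0.17 with Stra6 and -0.22 with the RPE marker level, and in right eyes 0.34, 0.38 and 0.40. Eyes were not spread evenly over the time points. Leaving out single samples gave -0.0395 to 0.132 with Stra6 and -0.0273 to 0.128 with the RPE marker level, 5 values below 0 in each. Leaving out single samples gave 14 to 24 genes called for the rhythm, 11 to 16 among time points and 5 to 7 for day against night. Rescaling moved the median of all genes by at most 0.03. The causes were not tested. No paired analysis was possible because the labels carry no replicate numbers and each mouse gave 1 sample. Runs of consecutive animal numbers as a covariate gave day minus night differences of -0.31 for Ttr, -0.11 for Rbp4 and -0.09 for Stra6. With 5 mice a time point, interval widths limit what can be seen, most for Rbp4, whose values near 0 rest on few reads.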
